A study of Mus musculus with 18 samples.

Results

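The 10 genes described here encode transcription factors that set and keep the identity of striatal projection neurons: Foxp1, Foxp2, Bcl11b, Ebf1, Meis2, Isl1, Zfp503, Ikzf1, Rarb and Rxrg. They were taken as the rows of the count table whose Ensembl identifiers map to these symbols, 10 of the 55421 genes listed, and the rule used no measured value. The symbols themselves were chosen with earlier results of these data known. RNA of the dissected striatum was sequenced in 18 libraries, each from a different mouse of 12 to 14 months. The groups were 5 WT mice, 5 zQ175 mice, which carry a full-length knock-in of the Huntington's disease mutation (an expanded CAG repeat in Htt), 3 CK2a'(+/-) mice, which lack 1 allele of the protein kinase CK2 catalytic subunit CK2a' (gene Csnk2a2), and 5 zQ175:CK2a'(+/-) mice, which carry both changes. All libraries are labelled C57BL/6; per the study's methods the zQ175 line was on a C57BL/6J background, and the CK2a'(+/-) line came from a 129/SvEv-C57BL/6J background and was crossed with WT and zQ175 mice over many generations, so that the mice used are described as C57BL/6J. Neither change is restricted to a cell type. The methods give a share of females that differed between the genotypes, while the labels give no sex per library. The values describe the whole tissue, in which fewer cells of a type and less RNA per cell cannot be told apart.

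Projection neurons are the GABAergic output cells of the striatum and make up most of its neurons. Those of the direct pathway carry the dopamine receptor Drd1 and those of the indirect pathway carry Drd2 and Adora2a. Bcl11b (also named CTIP2), Foxp1, Meis2 and Zfp503 are known from projection neurons of both pathways. Ebf1, Isl1 and Foxp2 are known mainly for the direct pathway, Ikzf1 (Ikaros) for enkephalin-expressing neurons, and Rarb and Rxrg are nuclear receptors for retinoids. None of these genes is restricted to projection neurons: Isl1 also marks cholinergic interneurons, Ikzf1 microglia, Ebf1 mural cells of vessels, Foxp2 thalamic neurons, and Bcl11b and Foxp1 cortical neurons.

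All 10 genes were detected in every library, with 88 to 9712 reads per gene and library, and all 10 passed the filter on low counts. No transcription factor passed the threshold of an adjusted p under 0.1 in any of the 6 comparisons made with edgeR. The fitted differences reached at most 0.46 on the log2 scale in either direction, with Rxrg and Meis2 lower and Foxp2 higher among the larger ones with the zQ175 allele. Foxp1, Bcl11b, Meis2, Rarb and Rxrg varied together from mouse to mouse. In each comparison of 1 group with another that was tested, the mice of both groups overlapped in all 10 genes.

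The libraries held between 13612381 and 22702547 counts. The targeted gene Csnk2a2 followed the labels, at 14.7 to 19.9 CPM (counts scaled to library size after TMM normalization) in the 8 mice with 1 CK2a' allele and 29.4 to 37.5 CPM in the 10 mice with both. Some libraries stood apart in markers of tissue around the striatum. The summed level of 6 thalamic neuron markers was 952 CPM in zQ175 replicate 1, which was the highest of the 18 libraries in 6 of the 6, and ranged from 43.3 to 284.6 CPM in WT, from 43.2 to 289.5 CPM in the other zQ175, from 33.8 to 411.5 CPM in CK2a'(+/-) and from 33.1 to 316.7 CPM in zQ175:CK2a'(+/-) mice. The summed level of 8 cortical excitatory neuron markers was 350.9 CPM in zQ175 replicate 5, the highest library in 7 of the 8, and ranged from 58.0 to 108.1 CPM in WT and from 100.9 to 350.9 CPM in zQ175 mice, with Emx1 at 0 in 5 of the 18 libraries and Neurod6 at 0 in 1. In CK2a'(+/-) and zQ175:CK2a'(+/-) mice the cortical sum was 50.6 to 120.8 and 55.0 to 105.2 CPM. Choroid plexus markers summed to 956.2 to 3045 CPM in 4 libraries (WT replicates 1 and 3, CK2a'(+/-) replicate 1 and zQ175:CK2a'(+/-) replicate 2) and to at most 15.6 CPM in the others. Among the 18 libraries Aqp1 was at 0 in 7, Folr1 in 3 and Otx2 in 1.

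Positions are given in GRCm38, as in the deposited table. Foxp1 (ENSMUSG00000030067) spans chr6:98925338-99522721 on the minus strand and Foxp2 (ENSMUSG00000029563) chr6:14901349-15441977 on the plus strand. Bcl11b (ENSMUSG00000048251) spans chr12:107910403-108003602 (minus), Meis2 (ENSMUSG00000027210) chr2:115863064-116065839 (minus) and Zfp503 (ENSMUSG00000039081) chr14:21983959-21989601 (minus). Ebf1 (ENSMUSG00000057098) spans chr11:44617317-45008091 (plus), Isl1 (ENSMUSG00000042258) chr13:116298281-116309689 (minus) and Ikzf1 (ENSMUSG00000018654) chr11:11685003-11772926 (plus). The retinoid receptors Rarb (ENSMUSG00000017491) and Rxrg (ENSMUSG00000015843) span chr14:16430839-16819156 (minus) and chr1:167598384-167639623 (plus). Rarb shares 1793 of its 5265 exon bases with Top2b, a topoisomerase gene on the opposite strand. The library kit marks strand, but whether the counting used it is not stated, so reads in the shared bases are uncertain (Top2b had 44205 and Rarb 24511 counts over all libraries). Foxp1 shares 300 exon bases of 13751 with Gm20696 on its own strand.

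Retinoid receptors act as pairs of a RAR and an RXR on direct repeats in DNA, and Rarb is the textbook example of a retinoid receptor gene that is itself switched on through such a repeat in its promoter. The promoters of Rarb and Rxrg are shown because these members include the largest fitted changes and hold matches to motifs of retinoid and other nuclear receptors, with motif matches in capitals. Promoter sequences are those of RefSeq in build GRCm38.p6, from 250 bases before to 50 bases after each start site, and 9 of the 10 genes matched (14 promoters, all genes but Foxp2).
Rarb, chr14:16575427-16575726, minus strand: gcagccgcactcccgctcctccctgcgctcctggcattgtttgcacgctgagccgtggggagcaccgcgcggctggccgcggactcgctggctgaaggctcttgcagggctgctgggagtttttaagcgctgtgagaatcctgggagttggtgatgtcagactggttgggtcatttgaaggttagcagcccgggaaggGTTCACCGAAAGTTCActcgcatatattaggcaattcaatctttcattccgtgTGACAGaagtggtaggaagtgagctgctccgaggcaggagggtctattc
Rxrg, upstream start site, chr1:167598112-167598411, plus strand: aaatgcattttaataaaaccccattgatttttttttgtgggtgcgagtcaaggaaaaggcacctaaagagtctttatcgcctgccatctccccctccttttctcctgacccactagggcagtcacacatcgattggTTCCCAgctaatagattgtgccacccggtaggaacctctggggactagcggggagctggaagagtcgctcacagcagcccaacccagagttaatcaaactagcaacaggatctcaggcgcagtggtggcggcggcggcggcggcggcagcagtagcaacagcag
Rxrg, downstream start site, chr1:167618015-167618314, plus strand: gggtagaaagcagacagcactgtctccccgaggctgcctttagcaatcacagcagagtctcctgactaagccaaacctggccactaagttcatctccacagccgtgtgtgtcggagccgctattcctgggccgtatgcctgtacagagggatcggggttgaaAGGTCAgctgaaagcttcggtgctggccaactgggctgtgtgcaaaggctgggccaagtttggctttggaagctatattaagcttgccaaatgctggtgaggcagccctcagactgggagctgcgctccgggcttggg

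The first capitals of Rarb are a match to the retinoic acid receptor repeat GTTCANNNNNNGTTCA, which lies from 52 to 37 bases before the start site. This repeat was found in 25 of 32851 promoters in the table, or 0.0761%, counting both strands. The last capitals of Rarb, TGACAG, are the letters of a MEIS site, found in 19.2% of all promoters and also in 1 of the Foxp1 promoters. In the downstream Rxrg promoter the capitals are AGGTCA, a core bound by nuclear receptors whose letters differ from the units of the Rarb repeat, which 16.3% of all promoters hold and which was found in 1 of the 14 promoters of these genes. In the upstream Rxrg promoter they are the reverse complement of TGGGAA, the core of Ikaros sites, present in 25.6% of all promoters and in 1 promoter each of Ebf1, Foxp1 and Rxrg among the 14. A forkhead motif (TGTTTAC, 3.65% of all promoters) and an EBF motif (TCCCNNGGGA, 0.904%) were found in 0 of the 14. No pair of matches to different motifs overlapped in these promoters. A match describes the letters alone.

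Levels were compared between genes per length, as RPKM (CPM per kilobase of summed exon length). In WT mice Bcl11b had the highest mean, 38.0 ± 11.0 RPKM (SD, n = 5), followed by Rxrg at 35.9 ± 15.3 and Foxp1 at 26.7 ± 7.69 RPKM. Meis2 followed at 23.6 ± 4.83 and Rarb at 15.1 ± 4.62 RPKM. The ranges of neighbours overlapped all along these 5 genes, although Foxp1 was above Meis2 and Meis2 above Rarb in 5 of 5 WT mice. A gap separated them from the rest, since the lowest Rarb value (11.8 RPKM) was above the highest Foxp2 value (6.42 RPKM).

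Below the gap, Foxp2 stood at 4.94 ± 1.09 RPKM (SD, n = 5), Isl1 at 3.39 ± 0.322, Ebf1 at 2.33 ± 0.488 and Zfp503 at 2.11 ± 0.345 RPKM in WT mice. Neighbours in this part of the order overlapped, and Isl1 was above Ebf1 in 5 of 5 mice. Ikzf1 was the lowest at 1.02 ± 0.194 RPKM, without overlap with Zfp503. The order by group mean was the same in zQ175:CK2a'(+/-) mice, whereas Zfp503 and Ebf1 changed places in zQ175 mice (2.39 and 2.27 RPKM) and Rxrg and Bcl11b in CK2a'(+/-) mice (44.1 and 42.3 RPKM). Both swaps were within the spread between mice.

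**Figure D1:**
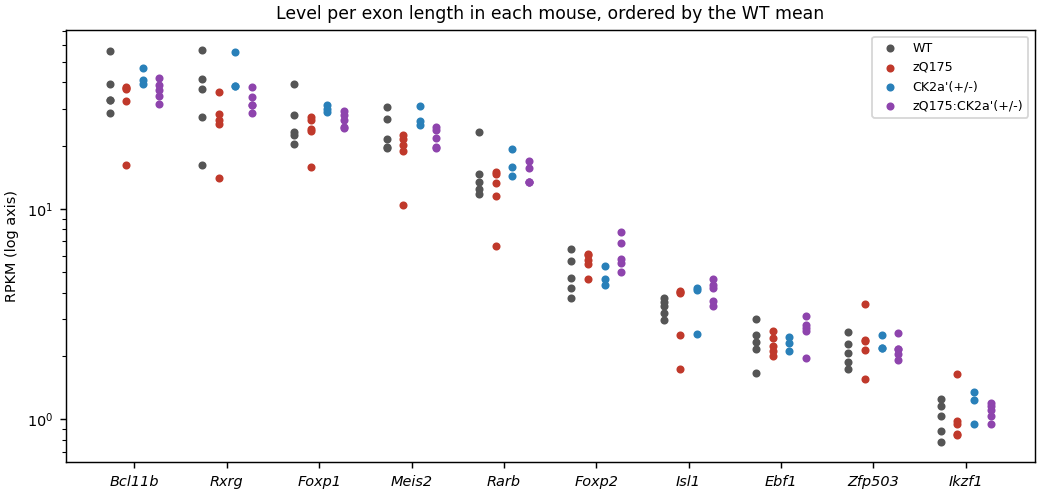
RPKM (log axis) of the 10 transcription factors in each mouse, ordered by the WT mean and coloured by genotype, 1 point per mouse. Bcl11b, Rxrg, Foxp1, Meis2 and Rarb form an upper group, and Ikzf1 is lowest at a WT mean of 1.02 RPKM.

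The comparison of zQ175 with WT mice asks how the disease allele changed the transcription factors. Of the 10, 7 were lower and 3 higher in zQ175 mice, with a median log2 fold change of -0.12 beside 0.0042 over the 20914 genes tested. Leaving out 1 library moved this median to between -0.21 (without zQ175 replicate 2) and -0.033 (without WT replicate 2), and it was -0.061 without zQ175 replicate 1, with 6 genes lower and 4 higher in both of the last cases. None passed (0 of 10, where edgeR called 1.1% of all genes), and 1 of 10 had an unadjusted p under 0.05, beside 13.9% of all genes. The 230 genes that edgeR called became 587 without WT replicate 2 and 10 without WT replicate 1. They became 0 without WT replicate 3 or without zQ175 replicate 5. In 0 of the 10 genes did the mice of both groups separate, a pattern that 1.19% of all genes showed in the lower direction.

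Among the factors shared by both pathways, Foxp1 was at 385, 542, 308, 319 and 278 CPM in WT replicates 1 to 5 and at 218, 376, 329, 366 and 323 CPM in zQ175 replicates 1 to 5. Bcl11b, a zinc finger factor needed for projection neurons to mature, was at 317, 458, 267, 267 and 233 CPM in WT and at 131, 304, 265, 302 and 309 CPM in zQ175 mice. In both genes zQ175 replicate 1 was the lowest and WT replicate 2 the highest of all 18 mice, and the other mice of both groups overlapped. The log2 fold change was -0.18 for Foxp1 (SE 0.150, adjusted p = 0.632) and -0.23 for Bcl11b (SE 0.187, adjusted p = 0.626).

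Meis2, a homeobox factor, was at 321, 368, 260, 238 and 235 CPM in WT mice and at 125, 271, 242, 260 and 226 CPM in zQ175 mice. Apart from replicate 1, the zQ175 mice overlapped with WT replicates 3 to 5 and lay below WT replicates 1 and 2. Meis2 was the gene with an unadjusted p under 0.05, with a log2 fold change of -0.34 (SE 0.160, adjusted p = 0.352 in edgeR). Zfp503, a zinc finger repressor also called Nolz1, was at 7.33 to 11.0 CPM in WT mice and at 6.56 to 14.8 CPM in zQ175 mice, with a log2 fold change of 0.18 (SE 0.174, adjusted p = 0.703).

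For the retinoid receptors, Rarb was at 77.0, 122, 65.2, 70.7 and 62.1 CPM in WT mice and at 35.1, 79.1, 69.7, 76.8 and 60.4 CPM in zQ175 mice. Rxrg was at 85.5, 131, 95.4, 63.0 and 37.1 CPM in WT mice and at 32.4, 64.9, 58.3, 82.9 and 60.5 CPM in zQ175 mice. Again zQ175 replicate 1 was the lowest and WT replicate 2 the highest of the 18, and in Rxrg WT replicate 5 was also below 4 of the zQ175 mice. Rxrg had the largest fitted difference of the 10 genes, -0.46 on the log2 scale (SE 0.243, 95% confidence interval -0.97 to 0.043, adjusted p = 0.409), and Rarb differed by -0.31 (SE 0.186, adjusted p = 0.491).

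Of the factors known for the direct pathway, Foxp2 was at 92.3, 105, 61.3, 76.8 and 68.4 CPM in WT mice and at 93.0, 100, 89.4, 98.7 and 75.7 CPM in zQ175 mice, which differed by 0.18 on the log2 scale (SE 0.134, adjusted p = 0.598). Ebf1, a helix-loop-helix factor, ranged from 16.2 to 29.2 CPM in WT and from 19.6 to 25.5 CPM in zQ175 mice, a difference of -0.035 on the log2 scale (SE 0.138, adjusted p = 0.938). Isl1, a LIM homeobox factor, was at 13.6, 14.2, 14.9, 12.7 and 11.7 CPM in WT mice and at 6.89, 15.9, 15.7, 16.1 and 9.95 CPM in zQ175 mice. Thus 3 zQ175 mice were above and 2 below the whole WT range of Isl1, and the log2 fold change of -0.061 was smaller than its SE of 0.195 (adjusted p = 0.921). Ikzf1 ranged from 4.48 to 7.20 CPM in WT and from 4.87 to 9.43 CPM in zQ175 mice, a difference of 0.042 on the log2 scale (SE 0.193, adjusted p = 0.949).

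The differences of several genes between zQ175 and WT mice changed when 1 mouse was left out. Without zQ175 replicate 1, the library with the highest thalamic sum, the log2 fold change was -0.071 for Foxp1, -0.063 for Bcl11b, -0.15 for Rarb, -0.19 for Meis2, -0.30 for Rxrg and 0.10 for Isl1. Without WT replicate 2 it was -0.013 for Foxp1, -0.061 for Bcl11b, -0.11 for Rarb, -0.24 for Meis2 and -0.25 for Rxrg. Foxp2 was 0.28 without WT replicate 2 and 0.097 without WT replicate 3, and Zfp503 was -0.015 without zQ175 replicate 3. The part of thalamic and cortical RNA in these differences was not tested.

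**Figure D2:**
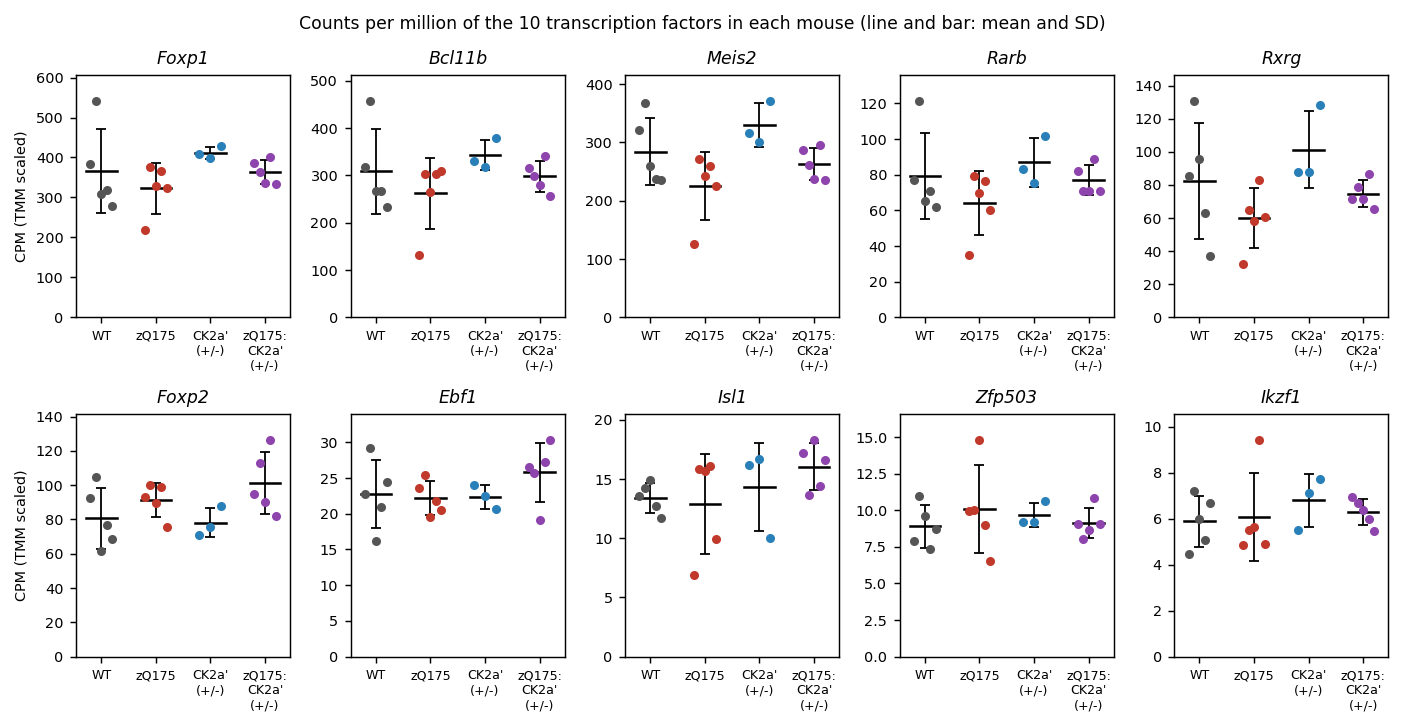
CPM (TMM scaled, axes from 0) of each transcription factor in each mouse by genotype, with the group mean and SD as line and bar (n = 5, 5, 3 and 5). WT mice overlap with each other group in every panel, the 3 CK2a'(+/-) mice lie above all zQ175 mice in Foxp1, Bcl11b, Meis2 and Rxrg, zQ175 replicate 1 is the lowest point in Foxp1, Bcl11b, Meis2, Rarb, Rxrg and Isl1, and WT replicate 2 the highest in Foxp1, Bcl11b, Rarb and Rxrg.

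Against the same WT mice, zQ175:CK2a'(+/-) mice had 5 transcription factors lower and 5 higher, with a median log2 fold change of 0.015 (-0.0087 over all genes). The median was 0.15 without WT replicate 2, with 9 genes higher, and -0.040 without WT replicate 4, with 4 higher. None passed, where edgeR called 0.0143% of all genes, and 1 of 10 had an unadjusted p under 0.05 beside 9.13% of all genes. That gene was Foxp2, a forkhead factor known for its role in vocal learning circuits, at 94.8, 113, 90.0, 126 and 82.3 CPM in zQ175:CK2a'(+/-) mice. Of these mice 2 lay above every WT mouse, and the log2 fold change was 0.33 (SE 0.134, adjusted p = 0.465).

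The other direct pathway factors were also higher in the fit of zQ175:CK2a'(+/-) against WT mice without passing, Isl1 by a log2 fold change of 0.26 (SE 0.194, adjusted p = 0.746) and Ebf1 by 0.18 (SE 0.138, adjusted p = 0.751), which was 0.089 without WT replicate 3. In zQ175:CK2a'(+/-) mice Isl1 was at 17.2, 13.6, 18.3, 14.4 and 16.6 CPM and Ebf1 at 26.6, 25.7, 19.1, 27.3 and 30.3 CPM. With all libraries, the genes shared by both pathways and the retinoid receptors had smaller fitted differences than in zQ175 against WT mice. These were -0.0092 for Foxp1, -0.049 for Bcl11b, -0.11 for Meis2, 0.040 for Zfp503, -0.046 for Rarb and -0.14 for Rxrg, all below their SE, and Ikzf1 differed by 0.096 (SE 0.193). Without WT replicate 2 Foxp1 was 0.16 (SE 0.121), Bcl11b 0.12 and Rarb 0.15, larger in size than -0.013, -0.061 and -0.11 in zQ175 against WT mice so computed. Meis2 was -0.014, Rxrg 0.077 and Zfp503 0.11 there, smaller in size than -0.24, -0.25 and 0.25. Whether the differences from WT differed between zQ175 and zQ175:CK2a'(+/-) mice was not tested here.

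In zQ175:CK2a'(+/-) mice the levels of these genes lay close together. Foxp1 was at 386, 363, 335, 401 and 335 CPM, Bcl11b at 315, 299, 280, 340 and 256 CPM, and Meis2 at 287, 261, 238, 296 and 235 CPM. Rarb was at 82.2, 70.9, 70.8, 89.0 and 71.0 CPM and Rxrg at 71.5, 78.5, 71.3, 86.9 and 65.4 CPM. All of these values lay within the range of the WT mice of the same gene, apart from the lowest Meis2 value, which was equal to that of WT mice to 3 digits.

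The direct comparison of zQ175 with zQ175:CK2a'(+/-) mice asks whether loss of 1 CK2a' allele changed the transcription factors in mice with the disease allele. Of the 10 genes, 9 were lower in zQ175 mice and only Zfp503 was higher, with a median log2 fold change of -0.20 (0.0051 over all genes). Without zQ175 replicate 1 the median was -0.092, with 8 genes lower and 2 higher. None passed, where edgeR called 0.0143% of all genes, and 0 of 10 had an unadjusted p under 0.05 beside 6.27% of all genes. The largest differences were -0.32 for Rxrg (SE 0.243, adjusted p = 0.885), -0.32 for Isl1 (SE 0.195, adjusted p = 0.854) and -0.26 for Rarb (SE 0.186, adjusted p = 0.878). Without zQ175 replicate 1 these were -0.17 for Rxrg, -0.16 for Isl1 and -0.11 for Rarb, and Foxp1 went from -0.18 to -0.065, Bcl11b from -0.19 to -0.017 and Meis2 from -0.23 to -0.078. The 95% interval reached from -0.83 to 0.18 for Rxrg and from -0.49 to 0.14 for Foxp1.

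In CK2a'(+/-) against WT mice 8 of the 10 genes were higher, by a median of 0.14 on the log2 scale (-0.0057 over all genes). This median was 0.31 without WT replicate 2, 0.076 without WT replicate 5 and 0.086 without CK2a'(+/-) replicate 3. In this comparison 0 of 10 had an unadjusted p under 0.05 beside 4.48% of all genes. None passed, where edgeR called 0.0143% of all genes. The fitted values reached from -0.048 for Foxp2 (SE 0.155) to 0.30 for Rxrg (SE 0.276), all with an adjusted p of 0.999. The 3 CK2a'(+/-) mice had Foxp1 at 409, 398 and 429 CPM, Bcl11b at 331, 318 and 380 CPM, and Meis2 at 316, 300 and 372 CPM, the last being the highest Meis2 value of all 18 mice. Rarb was at 83.4, 75.4 and 102 CPM and Rxrg at 87.8, 88.0 and 128 CPM, each below the highest WT mouse. The value of Rxrg was 0.097 without CK2a'(+/-) replicate 3, 0.11 without WT replicate 5 and 0.53 without WT replicate 2. All 3 CK2a'(+/-) mice lay above every zQ175 mouse in 4 of the 10 genes (Foxp1, Bcl11b, Meis2 and Rxrg), where 4.66% of all genes separated in this direction, and above every zQ175:CK2a'(+/-) mouse in 2 (Meis2 and Rxrg), where 4.48% did. These pairs of groups were set beside each other after the values were seen, with no test.

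The interaction, which tests whether the effect of the zQ175 allele differed between the CK2a' genotypes, reached from -0.26 for Zfp503 (SE 0.266, adjusted p = 0.959) to 0.24 for Ebf1 (SE 0.212, adjusted p = 0.953), with a median of 0.028 (-0.0019 over all genes) that lay between -0.13 (without WT replicate 2) and 0.16 (without WT replicate 5) when 1 library was left out. Zfp503 was -0.081 without zQ175 replicate 3 and Ebf1 0.13 without WT replicate 2. None of the 10 passed it or had an unadjusted p under 0.05, where edgeR called 0.00478% of all genes and 5.39% had such a p.

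Averaged over both CK2a' genotypes, the zQ175 allele was compared in 10 mice with it and 8 without, the same libraries as above. Here 6 genes were lower and 4 higher, with a median log2 fold change of -0.11 (0.0057 over all genes). The median was -0.056 without WT replicate 2, -0.060 without zQ175 replicate 1 and -0.17 without zQ175 replicate 4. Of the 10, 3 had an unadjusted p under 0.05 beside 16.2% of all genes, and 0 passed where edgeR called 4.9%. They were Meis2, with -0.33 (SE 0.121, adjusted p = 0.160), Rxrg, with -0.45 (SE 0.184, adjusted p = 0.219), and Foxp2, with 0.28 (SE 0.103, adjusted p = 0.171). Meis2 ranged from 125 to 296 CPM in the mice with the zQ175 allele and from 235 to 372 CPM in those without, and Foxp2 from 75.7 to 126 and from 61.3 to 105 CPM. Rarb differed by -0.24 (SE 0.141, adjusted p = 0.424), Bcl11b by -0.22 (SE 0.142, adjusted p = 0.484) and Foxp1 by -0.18 (SE 0.114, adjusted p = 0.466), and the other 4 genes by 0.084 or less in either direction. Without WT replicate 2, Rarb was -0.15, Bcl11b -0.14 and Foxp1 -0.10, and Bcl11b was -0.13 without zQ175 replicate 1.

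DESeq2 with default settings, the tool of the study, called 1 of the 10 for the averaged zQ175 allele. This was Meis2, with a log2 fold change of -0.33 and an adjusted p of 0.0813, while Foxp2 had 0.103 and Rxrg 0.237. DESeq2 called 8.92% of all genes in this comparison. It called 0 of the 10 in each of the other comparisons. There it called 5.26% of such genes between zQ175 and WT mice, 0.725% between zQ175:CK2a'(+/-) and WT mice, 0.145% between zQ175 and zQ175:CK2a'(+/-) mice, 0.0293% between CK2a'(+/-) and WT mice and 0.103% for the interaction. With no filter on low counts edgeR called Meis2 and Rxrg for the averaged allele (2.65% of all genes), without WT replicate 2 it called Foxp2 (5.57%), and without WT replicate 5 it called Rxrg (5.14%).

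**Figure D3:**
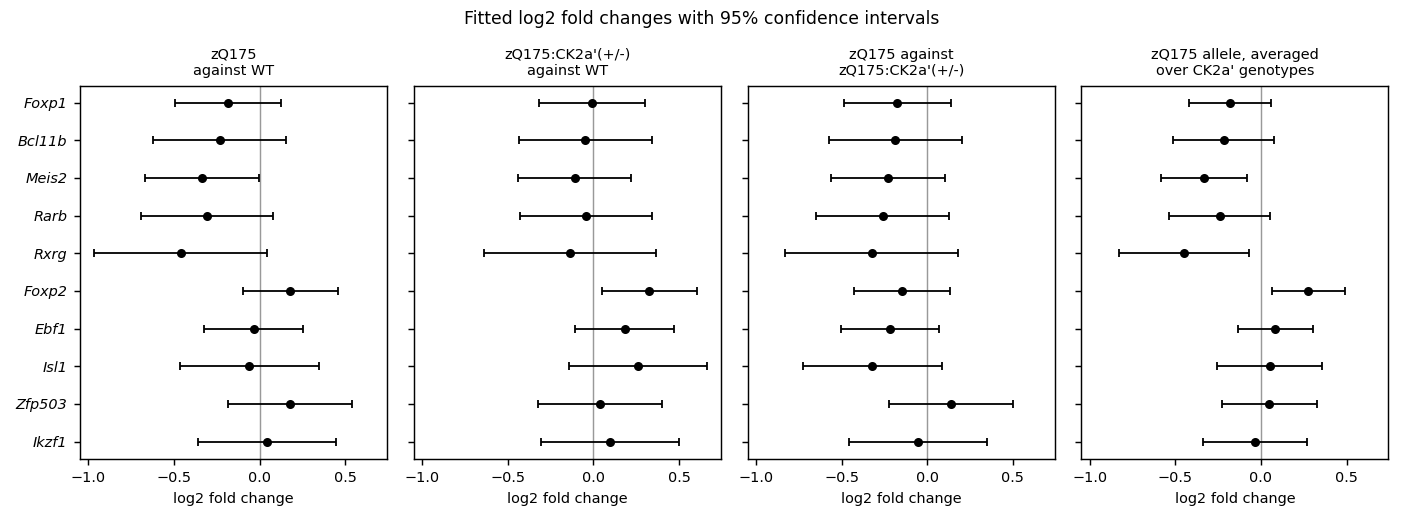
Fitted log2 fold change of each transcription factor (points) with its 95% confidence interval (bars) in 4 comparisons. The interval excludes 0 for Meis2 in zQ175 against WT mice, for Foxp2 in zQ175:CK2a'(+/-) against WT mice, and for Meis2, Rxrg and Foxp2 with the zQ175 allele averaged over the CK2a' genotypes, before adjustment for the number of genes tested.

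The genes were also compared with each other over the 18 libraries, as Pearson correlations of log2 CPM between all 45 pairs. Of the 45 pairs, 10 had an adjusted p under 0.05, and these were the 10 pairs among Foxp1, Bcl11b, Meis2, Rarb and Rxrg, which are grouped here after these values were seen. Their r ran from 0.848 (Rarb and Rxrg) to 0.957 (Foxp1 and Rarb). Spearman's rho of these pairs was 0.719 to 0.953. With 100000 permutations of the libraries, the adjusted p over the 45 pairs was 5.62e-05 to 9e-05 for r and 9e-05 to 0.0045 for rho in these 10, and 0.104 or more for both in the other 35. The libraries were permuted across genotypes, so these p do not set group differences apart from variation between mice. The 5 genes lie on 5 chromosomes.

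The correlation of these 5 genes was also computed without the extreme mice. Without the 2 libraries farthest from the median of the first gene, mostly WT replicate 2 and zQ175 replicate 1, r was 0.697 to 0.916. With the group means removed it was 0.807 to 0.956, and 0.729 to 0.951 when zQ175 replicate 1 was left out as well. All libraries share the tissue dissection and the scaling by total counts, and the part of either in the correlation was not tested.

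The other 35 pairs had r from -0.015 to 0.537. Ebf1, Isl1, Zfp503 and Ikzf1 held 88 to 528 reads per library, Foxp2 901 to 2383, and the 5 genes of the first group 691 to 9712. The part of read counts in the lower r was not tested. Isl1 had r of 0.421 to 0.537 with the 5 genes, and -0.11 to 0.125 with the group means removed and without zQ175 replicate 1, in which both Isl1 and the 5 genes were lowest of all mice. Foxp2 behaved the other way, with r of 0.120 to 0.354 over all libraries and 0.573 to 0.824 with the group means and that mouse removed. In zQ175 replicate 1, the library with the high thalamic marker sum, Foxp2 was at 93.0 CPM, rank 12 of 18 from the lowest. The part of thalamic RNA in this value was not tested. Ebf1, Zfp503 and Ikzf1 had r of at most 0.457 with each of the 5 genes, and with the group means and that mouse removed r was 0.0113 to 0.534 for Ebf1, 0.187 to 0.477 for Zfp503 and 0.230 to 0.348 for Ikzf1.

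**Figure D4:**
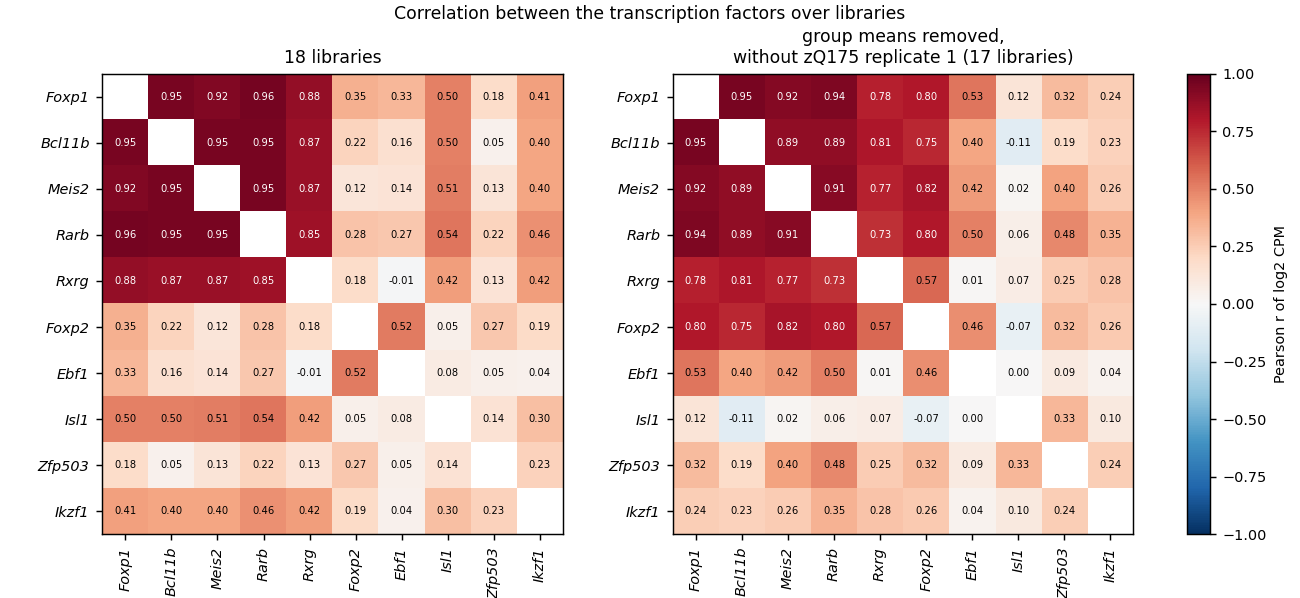
Pearson r of log2 CPM between the transcription factors over the 18 libraries (left) and with group means removed and zQ175 replicate 1 left out (right, 17 libraries). Foxp1, Bcl11b, Meis2, Rarb and Rxrg form a block of high r in both panels. With these 5 genes Foxp2 has r of 0.120 to 0.354 on the left and 0.573 to 0.824 on the right. Isl1 has 0.421 to 0.537 on the left and -0.11 to 0.125 on the right.

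Each transcription factor was set beside the genes whose pattern over the 18 libraries was most like its own, among 10206 genes with a mean log2 CPM of at least 3. These genes were chosen by their r, so no p is given. Foxp1 was nearest to Dgkb (r = 0.968), Itpr1 (0.964) and Rarb (0.957), and Bcl11b to Dgkb (0.973), Gas7 (0.973) and Chst15 (0.971). Meis2 was nearest to Baiap2 (0.975), Gng7 (0.968) and Ngef (0.966). For the retinoid receptors, Rarb was nearest to Dgkb (0.965), Ngef (0.960) and Cpne5 (0.957), and Rxrg to Jcad (0.967), Mtcl1 (0.952) and Gcnt2 (0.945). Dgkb, which encodes a diacylglycerol kinase, was thus the nearest gene of 3 transcription factors, and without zQ175 replicate 1 its r with Foxp1, Bcl11b and Rarb was 0.931 to 0.962.

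The remaining 5 genes had less similar neighbours, and the part of their read counts in this was not tested. Isl1 was nearest to Six3 (r = 0.849), another homeobox gene of the developing striatum, and to Gad1 (0.849) and Gad2 (0.791), the enzymes that make GABA, and these values dropped to 0.667, 0.671 and 0.550 without zQ175 replicate 1. Foxp2 was nearest to Yme1l1 (0.825), Nyap2 (0.807) and Pcdhga4 (0.799). Ebf1 was nearest to Zbtb45 (0.869), Zfp503 to Mical3 (0.818) and Ikzf1 to Foxo3 (0.767).

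The summed level of 18 output genes of projection neurons (receptors, neuropeptides and signalling proteins such as Drd1, Drd2, Penk and Ppp1r1b) was compared with the transcription factors mouse by mouse. The sum ranged from 5087 to 11530 CPM in WT, from 3172 to 5727 CPM in zQ175, from 8387 to 11260 CPM in CK2a'(+/-) and from 4880 to 6529 CPM in zQ175:CK2a'(+/-) mice. The highest library was WT replicate 2 and the lowest zQ175 replicate 1. Over all libraries, with group means left in, Meis2 and Rxrg followed the sum most closely, with r = 0.920 (rho 0.946) and r = 0.899 (rho 0.932). Foxp1, Bcl11b and Rarb had r of 0.851, 0.837 and 0.842 and rho of 0.827, 0.847 and 0.773. The adjusted p over the 10 relations was at most 6e-05 for r and at most 0.00062 for rho in these 5 genes. The libraries were permuted across genotypes, so these p do not set group differences apart from variation between mice. The part of the shared dissection and scaling in these relations was not tested.

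Without the 2 libraries farthest from each gene's median, r with the output gene sum was 0.922 for Meis2, 0.928 for Rxrg, 0.682 for Foxp1, 0.702 for Bcl11b and 0.678 for Rarb. With the group means removed r was 0.883 to 0.927 in the 5 genes, and Foxp1 at 0.913 was then above Meis2 at 0.906. The other 5 genes had r from -0.0061 (Foxp2) to 0.373 (Ikzf1), with adjusted p of 0.208 or more. For Ikzf1, rho was 0.505 (adjusted p = 0.0559), and without its 2 farthest libraries r was 0.707, above the values of Foxp1, Bcl11b and Rarb so computed. In the other 4 of these genes r without 2 libraries was -0.32 to 0.306. With the group means removed r was 0.555 for Foxp2 (0.678 also without zQ175 replicate 1), 0.406 for Isl1, 0.403 for Ikzf1, 0.345 for Zfp503 and 0.0838 for Ebf1.

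**Figure D5:**
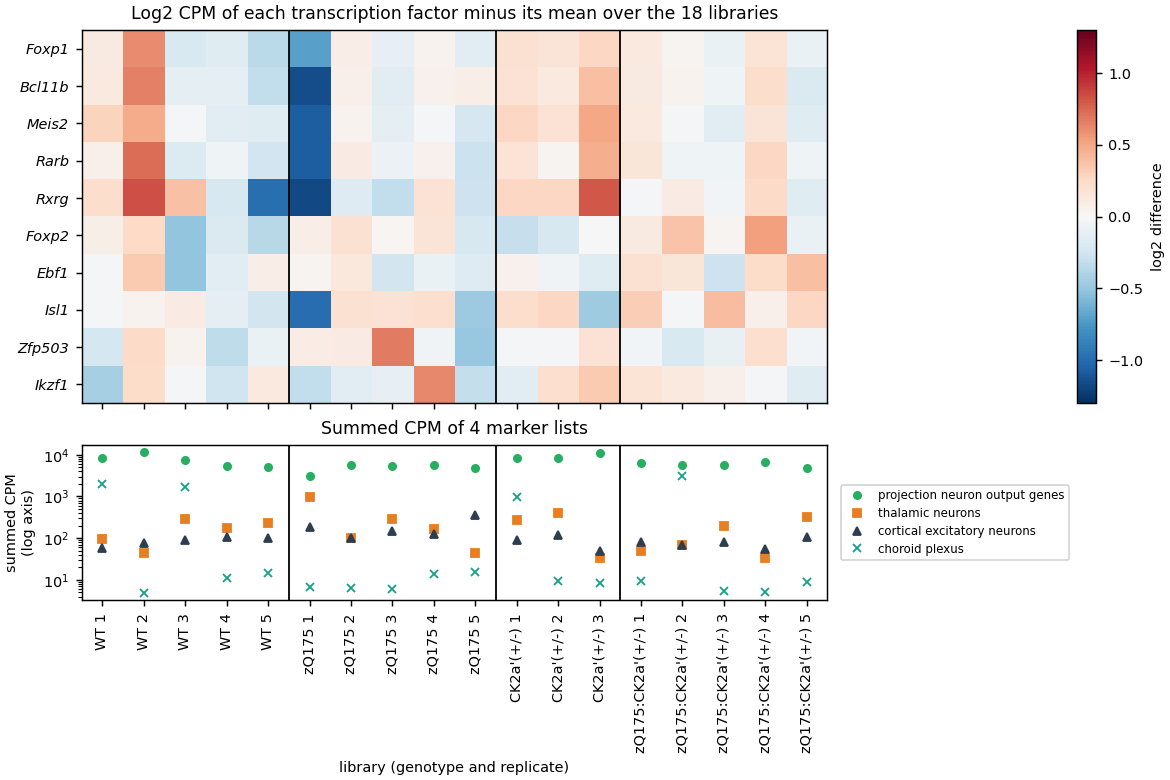
Top, log2 CPM of each transcription factor minus its mean over the 18 libraries, 1 column per library. Bottom, summed CPM (log axis) of the output genes and of thalamic, cortical and choroid plexus markers in the same libraries: zQ175 replicate 1 has the lowest output gene sum (3172 CPM) and the highest thalamic sum (952 CPM).

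Beside the transcription factors, the output genes themselves were lower with the zQ175 allele, 18 of 18 in the fit of zQ175 against WT mice (median -0.66 on the log2 scale, -0.38 without WT replicate 2), and 4 of 18 passed as lower, where 0.712% of all genes did. In the averaged comparison 18 of 18 were lower, with a median of -0.70, and 14 of 18 passed as lower, where 2.78% of all genes did. The list was chosen with earlier results of these data known, so these counts are no independent test. In zQ175:CK2a'(+/-) against WT mice 18 of 18 were lower (median -0.41) and 0 passed. In CK2a'(+/-) mice, part of the averaged reference, 18 of 18 were higher than in WT mice (median 0.285), and 0 passed. DESeq2 called 6 of the 18 lower in zQ175 against WT mice and 15 in the averaged comparison. In both directions it called 5.26% and 8.92% of the genes to which it gave an adjusted p. In the averaged comparison with edgeR, Scn4b changed by -1.22 (SE 0.167, adjusted p = 0.00120), Adora2a by -1.17 (SE 0.184, adjusted p = 0.00224), Penk by -1.02 (SE 0.170, adjusted p = 0.00318) and Ppp1r1b by -0.77 (SE 0.156, adjusted p = 0.0128). Over the same mice the median of the 10 transcription factors was -0.11 (-0.056 without WT replicate 2), and the difference between both sets was not tested. Without the 4 libraries with choroid plexus markers the count of 14 was 3 and the count of 4 was 0. In these refits edgeR called 126 genes in all in place of 1024, and 1 in place of 230. The median of the output genes was -0.72 in the averaged comparison and -0.60 in zQ175 against WT mice.

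Among 18 other transcription factors of striatal development, 16 were tested and 1 passed in zQ175 against WT mice (1.1% of all genes), as with DESeq2 (5.26%). It was Sox11, a factor of immature neurons, which was higher by a log2 fold change of 0.47 (SE 0.118, adjusted p = 0.0838). This call was lost without WT replicate 3, without zQ175 replicate 5 or with the compared groups alone, where no gene of the whole table passed. Sox11 was higher by 0.58 (SE 0.0913, adjusted p = 0.00224) in the averaged comparison, where it again was the gene of this list that passed (4.9% of all genes). The median of the list was -0.044 and -0.072 in these comparisons. Lhx8, a factor of cholinergic interneurons, had -0.66 (adjusted p = 0.303) and Dlx6 had -0.33 (adjusted p = 0.392) in zQ175 against WT mice.

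Paralogs of the 10 genes were tested in 15 of 18 cases, and 1 passed in zQ175 against WT mice (1.1% of all genes), while DESeq2 called 2 (5.26%). It was Ikzf2 (Helios), which is known from maturing projection neurons and is a relative of Ikzf1, higher by 0.64 (SE 0.168, adjusted p = 0.0974) and by 0.44 (SE 0.129, adjusted p = 0.0753) in the averaged comparison (4.9% of all genes called). Its call in zQ175 against WT mice was lost without WT replicate 3, without zQ175 replicate 5 or with the compared groups alone. Ikzf5 had 0.39 (adjusted p = 0.104), Ikzf3 -1.93 (adjusted p = 0.268) and Bcl11a, the relative of Bcl11b, 0.33 (adjusted p = 0.358). The median of the paralogs was 0.068 and 0.059. Of 15 genes that make, carry or break down retinoids or serve as coregulators of their receptors, 13 were tested and 0 passed in either comparison, with medians of 0.048 and -0.052. The lowest adjusted p in zQ175 against WT mice were those of the coregulators Ncoa1 (log2 fold change 0.21, adjusted p = 0.195) and Ncor1 (0.18, adjusted p = 0.258), followed by the retinal reductase Dhrs3 (-0.43, adjusted p = 0.285) and the retinol carrier Rbp4 (-0.70, adjusted p = 0.285). An unadjusted p under 0.05 was found for 5 of the 13 in the first comparison (13.9% of all genes) and for 3 in the averaged one (16.2%). DESeq2 called 0 of the 13 in the first (5.26% of the genes to which it gave an adjusted p) and 1 in the averaged comparison (8.92%).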

How the data were processed

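RNA of mouse striatum was measured in 18 libraries. The authors trimmed the reads (Trimmomatic), aligned them to GRCm38 with HISAT2 2.1.0 and deposited read counts per gene from Subread 1.6.2, as raw counts without normalization, per the submitters' processing notes; the strand setting is not given in the sources used here. The deposited gene lengths (other values) are summed exon lengths. No column of values was left unmapped (0). Total counts ranged from 13612381 to 22702547, and replicates of a genotype are separate mice.

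The analysis used edgeR 4.0.16 in R 4.3.3 (TMM, filterByExpr, quasi-likelihood test, all libraries fitted together by genotype, Benjamini-Hochberg adjustment over the 20914 genes tested, adjusted p under 0.1); every adjusted p of a gene is from edgeR unless DESeq2 1.42.0 is named. CPM used TMM-scaled library sizes, log2 CPM a prior count of 2, and RPKM the deposited lengths. The fit was tested on simulated data. Of 55421 Ensembl identifiers, 55154 matched a symbol. Promoters and motifs were read from RefSeq sequences (GRCm38.p6).

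The members and all gene lists were chosen with earlier results of these data known. Named were the 10 members, from each list at most the 4 genes with the lowest p in zQ175 against WT mice, and for each member its 3 nearest genes (a listed gene that the rule names is not reported here); Ebf1, Zfp503 and Ikzf1 are given with the first. Correlations used 100000 permutations. Alternatives were DESeq2, its size factors, other filters, the compared groups alone, a replicate block, the Xist level as covariate (labels give no sex, and per the study's methods the sex ratio differed between the genotypes), a robust fit, an adjusted p under 0.05 and leaving out each library. Leaving out zQ175 replicates 1 and 5, or the 4 libraries with choroid plexus markers, was added after seeing the data.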

Additional observations from a re-analysis of the deposited data

Results flagged for a closer look

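Among the 30 sets of 5 mice tested for the 10 transcription factors, 3 held a mouse whose gap to its nearest neighbour was above 0.71 of the whole range. Bcl11b was at 131 CPM in zQ175 replicate 1, below 265 to 309 CPM in the other zQ175 mice. Rarb was at 122 CPM in WT replicate 2, above 62.1 to 77.0 CPM in the other WT mice. Ikzf1 was at 9.43 CPM in zQ175 replicate 4, above 4.87 to 5.66 CPM in the other zQ175 mice. Chance alone flags about 1 in 20 such sets.

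By the same rule, 6 of the 42 sets of summed list levels held such a mouse. In zQ175 replicate 1 the thalamic neuron markers summed to 952 CPM (43.2 to 289.5 in the other zQ175 mice) and the markers of other interneurons to 95.3 CPM (166.7 to 183.4). In zQ175:CK2a'(+/-) mice the choroid plexus markers summed to 3045 CPM in replicate 2 (5.26 to 9.18 in the others) and the retinoid handling genes to 1014 CPM in replicate 5 (954.3 to 958.8). In WT mice the cholinergic interneuron markers summed to 51.2 CPM in replicate 5 (68.5 to 73.5 in the others) and those of oligodendrocytes and their precursors to 5710 CPM in replicate 3 (4092 to 4534).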

How the results depend on the processing

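The count of transcription factors past the threshold was 0 under every setting tried in all comparisons but that of the averaged zQ175 allele. There it was 1 with DESeq2 (Meis2, adjusted p = 0.0813), which called 8.92% of the genes to which it gave an adjusted p. It was 2 with no filter on low counts (Meis2, adjusted p = 0.0522, and Rxrg, 0.0636), where 2.65% of all genes were called. It was 0 to 1 when a library was left out, 1 without WT replicate 2 (Foxp2, adjusted p = 0.0714, 5.57% of all genes called) or WT replicate 5 (Rxrg, 0.0587, 5.14%); there Foxp2 ranged from 0.23 to 0.32 and Rxrg from -0.54 to -0.35.

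The fitted values that the text gives were recomputed, for all 10 genes in 4 comparisons but for 2 genes each in CK2a'(+/-) against WT mice and in the interaction. Of 1264 such values under other settings, 38 changed sign, in 16 results, of which 15 had a fitted value below its SE. Isl1 was 0.24 in zQ175 against WT mice and Ikzf1 was 0.13 against zQ175:CK2a'(+/-) mice and 0.057 for the averaged allele without zQ175 replicates 1 and 5. Ikzf1 was -0.059 in zQ175 and -0.027 in zQ175:CK2a'(+/-) against WT mice without the choroid plexus libraries, and 0.048 between zQ175 and zQ175:CK2a'(+/-) mice with the Xist level. Leaving out each library, zQ175 against WT ranged from -0.17 to 0.11 for Ikzf1, -0.13 to 0.058 for Ebf1, -0.16 to 0.10 for Isl1 and -0.015 to 0.30 for Zfp503. For zQ175:CK2a'(+/-) against WT the ranges were -0.030 to 0.11 for Zfp503, -0.0041 to 0.16 for Ikzf1, -0.094 to 0.16 for Foxp1, -0.14 to 0.12 for Bcl11b, -0.12 to 0.15 for Rarb, -0.17 to -0.014 for Meis2 and -0.33 to 0.077 for Rxrg. Between zQ175 and zQ175:CK2a'(+/-) mice they were -0.27 to 0.015 for Ikzf1 and -0.040 to 0.25 for Zfp503, in CK2a'(+/-) against WT mice -0.14 to 0.068 for Foxp2, and for the averaged allele -0.14 to 0.017 for Ikzf1, -0.048 to 0.13 for Isl1 and -0.055 to 0.11 for Zfp503.

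The 4 output genes called in zQ175 against WT mice became 12 with no filter, 1 with a robust fit or at an adjusted p under 0.05, and 0 with the compared groups alone, without zQ175 replicates 1 and 5 or without the choroid plexus libraries. Leaving out 1 library gave 0 to 9: 0 without WT replicate 1, WT replicate 3 or zQ175 replicate 5, 1 without zQ175 replicate 1 and 9 without WT replicate 5. The 14 of the averaged comparison ranged from 9 (without CK2a'(+/-) replicate 3) to 15, and were 3 without the choroid plexus libraries. Without the latter, calls over all genes also fell, to 126 in the averaged comparison and 1 in zQ175 against WT mice. The cause of these shifts was not tested.

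Samples of different groups that share a replicate number did not deviate together (r from -0.136 to 0.120 in 24 pairs, and 1 of 18 libraries was most like one of its own number), so the numbers name the mice only. With the replicate block, 98 genes in place of 230 passed between zQ175 and WT mice and 519 in place of 1024 for the averaged allele. Of the output genes 2 passed in the first, Foxp1 was 0.014 in zQ175:CK2a'(+/-) against WT mice, and no call of a transcription factor changed. With 5 or 3 mice a group, the SE of the members was 0.103 to 0.370 on the log2 scale, and members held at least 88 counts in each library.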
